A study of Canis lupus familiaris with 28 samples.

Results

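Cell division genes were examined in canine blood as a list of 38 genes that act in DNA replication, mitosis and the exit from mitosis. The list was drawn up by gene name, and a gene was represented by its brightest probe. Of the 38 genes, 32 had a probe of that name among the 43603 probes that were not controls, and 31 of these passed the filter on signal, with RRM2 below it. KIF20A, CENPE, PRC1, HMMR and MKI67 were named only in the description of a probe, and CCNB1 was matched to no probe and was not analysed here.

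RNA from the blood of 20 dogs with canine atopic dermatitis (AD dogs), a chronic itching skin disease, and of 8 healthy dogs was measured, 1 array for each dog. The labels name the source as whole blood and the methods as its nucleated cells. The dogs were adults of various breeds and both sexes, and the healthy dogs were blood donors. AD dogs were sampled while signs of disease were visible, had tested positive in serum and in skin, and had been kept off anti-inflammatory drugs before these tests. On every array the dog's RNA carried Cy5 and a common reference, pooled RNA of 13 other healthy dogs, carried Cy3.

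A dividing cell first loads the MCM helicase on its origins of replication, copies its DNA, and then enters mitosis under CDK1 and its cyclins. Spindle motors and kinetochore proteins align the chromosomes, the checkpoint holds the cell until all are attached, and the anaphase-promoting complex then ends mitosis. In blood most leukocytes and red cells do not divide, so transcripts of these genes come mainly from the few cycling lymphocytes and plasmablasts and from young cells released by the marrow.

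The 9 probes below, each of 60 bases, are shown as examples of the 2 patterns described further on. The first 5 are for genes of the BIRC5 pattern, with both probes named AURKA because these 2 disagreed. The other 4 are for genes of the TOP2A pattern. Each is written 5′ to 3′ in lower case.
BIRC5, chr9:2930475-2930534, minus strand: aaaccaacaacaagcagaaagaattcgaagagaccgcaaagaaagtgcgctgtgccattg
PLK1, chr6:22165785-22166098, minus strand: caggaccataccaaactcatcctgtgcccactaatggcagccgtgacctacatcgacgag
TPX2, chr24:21242510-21244073, plus strand: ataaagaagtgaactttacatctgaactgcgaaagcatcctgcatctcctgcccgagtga
AURKA, brightest probe of that name, chr24:41594888-41594947, minus strand: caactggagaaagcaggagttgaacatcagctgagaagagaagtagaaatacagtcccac
AURKA, second probe of that name, chr24:41585989-41586048, minus strand: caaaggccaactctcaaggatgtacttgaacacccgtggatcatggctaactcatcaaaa
CCNA2, chr19:18322974-18323033, plus strand: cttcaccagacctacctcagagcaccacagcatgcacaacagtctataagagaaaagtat
CDC20, chr15:16803858-16803917, minus strand: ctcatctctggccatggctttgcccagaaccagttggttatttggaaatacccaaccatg
UBE2C, chr24:33131653-33132010, plus strand: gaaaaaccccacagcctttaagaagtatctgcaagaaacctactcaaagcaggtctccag
MCM4, chr29:258810-258869, plus strand: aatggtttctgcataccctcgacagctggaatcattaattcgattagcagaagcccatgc
Positions are those of the canFam3 build, as the files print them. The probes of PLK1, TPX2 and UBE2C spanned 314, 1564 and 358 bases of the genome, so their 60 bases are split there. No annotation of this build was used, so exons were not assigned.

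Among healthy dogs, 84.3% to 90.3% of probes stood well above background in Cy5, and among AD dogs 51.7% to 87.5% did. The 6 AD arrays of the last of 5 scan days had at most 63.2%. Healthy dogs lay on slides 2 and 3 of 8 slides, and no slide or scan day held dogs of both groups, so disease and slide cannot be told apart. Values below are log2 ratios of dog to common reference, centered on the median of each array. Between arrays, the correlation over all probes kept ran from -0.40 to 0.81, and 12 of 378 pairs lay under -0.3. The dyes are stated in the methods and the direction was kept.

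Nearly all cell division genes were measurable in blood. In each of the 8 healthy dogs all 32 genes with a probe of that name were well above background. In AD dogs the number was 27 to 32, with a median of 32, and it fell as low as 27 on 2 arrays, those of AD dogs 14 and 20. Over the 14 AD dogs outside the last scan day it was also 27 to 32, and on that day it was 27 to 32 with a median of 29.5. RRM2, the small subunit of ribonucleotide reductase, was detected in 13 of 20 AD dogs and 8 of 8 healthy dogs. CENPF, a kinetochore protein, was detected in 16 of 20 and 8 of 8, and MCM3 in 17 of 20 and 8 of 8. Outside the last scan day these 3 genes were detected in 12, 14 and 13 of 14 AD dogs. Low detection moved with the scan day but was not confined to the last one, since AD dog 14 was scanned on day 4. The part of detection in the differences below was not tested.

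No cell division gene passed the threshold between AD and healthy dogs. With the study's threshold for the adjusted p, 0.085, limma called 0 of 31 genes, against 0 of 30202 probes (0% of all). The study did report differing transcripts at this threshold, so its calls were not reproduced here. The reason was not tested. At an unadjusted p under 0.05 it passed 2 of 31 genes, AURKA and TYMS, against 6.12% of all probes, so the share of 6.45% was near that of the whole array. Both were higher in AD dogs, and 1.65% of all probes were under this p and higher in AD dogs. The fitted log2 difference of AD minus healthy was positive for 14 genes and negative for 17, with a median of -0.03 over the 31 genes and -0.01 over all probes tested. It ranged from -0.49 for CDC20 to 0.45 for AURKA, with standard errors of 0.12 to 0.35. Median Cy5 signals over AD dogs ran from 96.8 for CDC20, under the filter's limit of 100, to 16486 for AURKB. MCM3 and ASPM, at 106 and 108, were also near that limit. In bulk blood RNA, fewer cells of a type and less RNA per cell cannot be told apart.

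**Figure D1:**
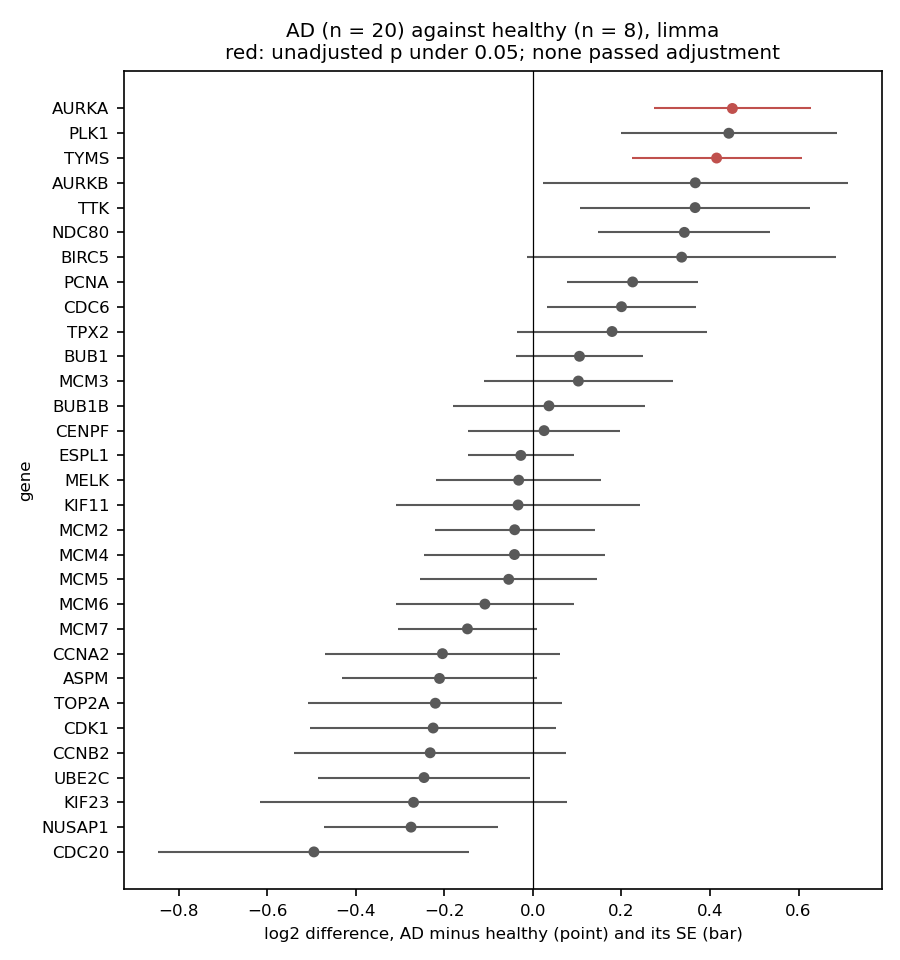
Log2 difference of AD (n = 20) minus healthy dogs (n = 8) for each of the 31 cell division genes kept, as fitted by limma (points) with its standard error (bars); red marks an unadjusted p under 0.05. The differences lay on both sides of 0, from -0.49 for CDC20 to 0.45 for AURKA, and none passed adjustment.

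Among the replication genes, 9 were kept, with a median difference of -0.04, and none passed adjustment. TYMS, the thymidylate synthase that supplies thymidine for DNA, had log2 ratios of -0.79, -0.06 and 1.13 in AD dogs (lowest, median and highest) and of -1.08, -0.45 and 0.21 in healthy dogs. The groups overlapped, but 7 of 20 AD dogs lay above every healthy dog. Its difference was 0.41 (SE 0.19, unadjusted p = 0.0386, adjusted p = 0.767), and a second probe of TYMS gave 0.26 (SE 0.16). PCNA, the sliding clamp of DNA polymerase, was -0.33, 0.02 and 0.94 in AD dogs and -0.48, -0.12 and 0.16 in healthy dogs. Here 8 of 20 AD dogs exceeded all healthy dogs. The difference of 0.23 (SE 0.15) had an adjusted p of 0.866, and a second probe of PCNA gave 0.06 (SE 0.18).

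The MCM2 to MCM7 genes encode the helicase ring that opens the DNA ahead of the fork. Their differences were small, from -0.15 for MCM7 to 0.10 for MCM3, with standard errors of 0.16 to 0.21 and adjusted p of 0.882 to 0.979. MCM2 was -0.79, -0.12 and 0.72 in AD dogs and -0.61, -0.18 and 0.66 in healthy dogs. MCM3 was -1.27, -0.22 and 0.77 in AD dogs and -1.57, -0.11 and 0.36 in healthy dogs. Above the healthy range lay 1 AD dog for MCM2 and 3 for MCM3, and below it 3 and 0. MCM4 was -1.18, -0.16 and 0.63 in AD dogs and -1.14, -0.15 and 0.45 in healthy dogs. MCM5 was -1.16, 0.11 and 1.22 in AD dogs and -0.25, 0.10 and 0.51 in healthy dogs, so AD dogs lay on both sides of the healthy range. MCM6 was -1.19, -0.13 and 0.95 in AD dogs and -0.53, -0.13 and 0.48 in healthy dogs. MCM7 was -0.98, -0.34 and 0.65 in AD dogs and -0.38, -0.06 and 0.10 in healthy dogs. For MCM7, 9 AD dogs lay below and 4 above every healthy dog. CDC6, which loads the ring, had a difference of 0.20 (SE 0.17). The second probes of MCM6 and MCM7 followed the first closely (r of 0.96 and 0.99 over AD dogs). The 2 probes of MCM7 overlap on the genome (chr6:9499771-9499830 and chr6:9499775-9499834), so their agreement is not an independent check. That of MCM4 followed it less (r of 0.31), and that of MCM3 did not follow it (r of -0.40).

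The 7 mitotic kinases and cyclins held both the largest positive differences and several negative ones. AURKA, the kinase of the spindle poles, was -0.11, 0.27 and 1.45 in AD dogs and -0.49, 0.00 and 0.67 in healthy dogs. Above the healthy mean lay 17 of 20 AD dogs, and 5 lay above all healthy dogs. Its difference was 0.45 (SE 0.18, unadjusted p = 0.0161, adjusted p = 0.593). Other probes of the gene gave other values. The second probe of AURKA gave 0.12 (SE 0.17), and another one, tied to AURKA only by accession and with a median signal in AD dogs of 1107, gave -0.17 (SE 0.17, unadjusted p = 0.328). The first probe had an r of -0.11 and -0.22 with these over AD dogs, and of 0.43 and 0.53 over healthy dogs.

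PLK1, the kinase that drives entry into mitosis and spindle assembly, was -0.88, 0.55 and 1.33 in AD dogs and -0.72, -0.04 and 1.09 in healthy dogs, with a difference of 0.44 (SE 0.24, adjusted p = 0.852). AURKB, the kinase of the chromosomal passenger complex, was -1.54, 0.07 and 1.61 in AD dogs and -1.08, -0.07 and 1.31 in healthy dogs. For both genes the healthy range covered most of the AD dogs, with 5 and 4 outside it. CDK1, the kinase at the center of mitotic entry, was -1.88, -0.28 and 1.38 in AD dogs and -0.97, -0.08 and 0.73 in healthy dogs, with a difference of -0.23 (SE 0.28). The cyclins CCNA2 and CCNB2 gave -0.20 (SE 0.26) and -0.23 (SE 0.31), and the kinase MELK gave -0.03 (SE 0.19).

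Of the 7 genes of the checkpoint and mitotic exit, none passed even at an unadjusted p of 0.05. BUB1 and BUB1B, kinase-like proteins of the spindle checkpoint, had differences of 0.11 (SE 0.14) and 0.04 (SE 0.22). BUB1 was -0.58, 0.19 and 0.66 in AD dogs and -0.33, -0.03 and 0.49 in healthy dogs. BUB1B was -1.22, 0.16 and 1.36 in AD dogs and -0.32, -0.05 and 0.26 in healthy dogs, with 6 AD dogs above and 4 below every healthy dog. NDC80, which binds microtubules at the kinetochore, was -0.75, 0.20 and 1.00 in AD dogs and -0.82, -0.16 and 0.86 in healthy dogs, with a difference of 0.34 (SE 0.19, adjusted p = 0.865). The checkpoint kinase TTK gave 0.37 (SE 0.26). CDC20, the activator of the anaphase-promoting complex, gave -0.49 (SE 0.35), UBE2C, its ubiquitin-conjugating enzyme, -0.25 (SE 0.24), and ESPL1, the separase that cuts cohesin, -0.03 (SE 0.12).

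Spindle and chromosome genes gave the same mixture. The motors KIF11 and KIF23 had differences of -0.03 (SE 0.27) and -0.27 (SE 0.35), and the spindle proteins NUSAP1, TPX2 and ASPM had -0.28 (SE 0.20), 0.18 (SE 0.21) and -0.21 (SE 0.22). CENPF had 0.03 (SE 0.17). TOP2A, the topoisomerase that untangles the copied chromosomes, was -1.73, -0.19 and 1.51 in AD dogs and -0.89, 0.06 and 1.1 in healthy dogs, with a difference of -0.22 (SE 0.29). BIRC5, or survivin, the partner of AURKB in the passenger complex, was -1.12, 0.18 and 2.13 in AD dogs and -0.62, -0.04 and 1.42 in healthy dogs, with a difference of 0.34 (SE 0.35). Of the genes matched by description, MKI67, the proliferation antigen Ki-67, was -0.92, 0.51 and 1.57 in AD dogs and -0.68, -0.01 and 0.93 in healthy dogs (difference 0.36, SE 0.27), and a second probe gave a difference of 0.03 (SE 0.21). KIF20A, CENPE, PRC1 and HMMR gave -0.27 (SE 0.23), -0.07 (SE 0.26), -0.29 (SE 0.33) and -0.15 (SE 0.14), and a second probe of KIF20A gave -0.04 (SE 0.26). These 4 genes were well above background in 17, 16, 16 and 20 of 20 AD dogs, and outside the last scan day in 14, 14, 12 and 14 of 14. The lowest AD values of KIF20A (-1.75, AD dog 16) and CENPE (-3.04, AD dog 19) came from arrays of the last scan day. None of the 5 genes matched by description passed an unadjusted p of 0.05.

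**Figure D2:**
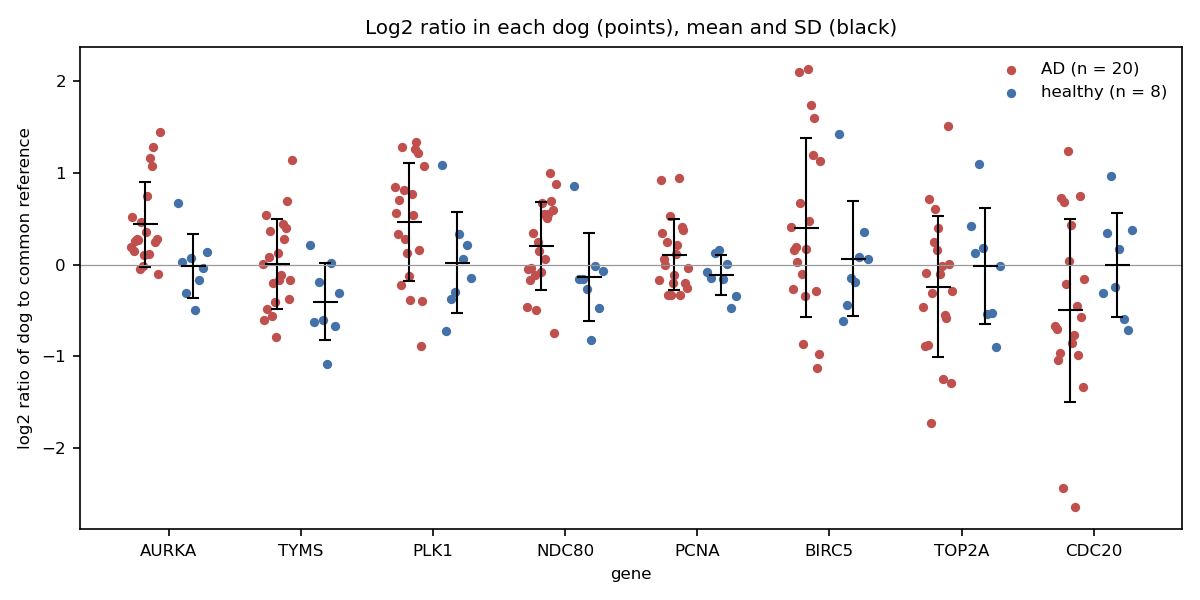
Log2 ratio of dog to common reference for 8 cell division genes in each AD dog (red, n = 20) and healthy dog (blue, n = 8), with the mean and SD of each group in black. The groups overlapped for every gene shown. AURKA and TYMS had the smallest unadjusted p. The lowest single values were those of CDC20, which was well above background in 18 of the AD dogs.

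The common reference channel held the same RNA on each array, but its values had passed a dye normalization that uses both channels. It gave only a rough measure of what the arrays add. In this channel alone, quantile normalized, limma called 17 of 31 cell division genes between AD and healthy arrays at the same threshold, against 39.1% of all probes. In the dog's channel alone it called 0 of 31, against 4.14% of all probes, and with weights for each array it called 1 of 31, PLK1 (difference 0.57, adjusted p = 0.0818), against 3.34%. Over all settings the adjusted p of PLK1 ran from 0.0818 to 0.996.

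Dogs of 1 group differed widely among themselves. The median SD of the 31 genes over dogs was 0.56 in AD and 0.42 in healthy dogs, and the SD was larger in AD dogs for 25 of 31 genes, against 79.3% of all genes. AD dog 17 was the highest of the AD dogs for 16 of the 19 genes of the TOP2A pattern, such as TOP2A (1.51), CDK1 (1.38) and CCNB2 (1.59). These 19 genes were grouped by their co-variation over the same AD dogs, so the count is a description only. The array of AD dog 17 was of the last scan day, with 63.2% of probes detected. AD dog 6 was the lowest for TOP2A (-1.73), CDK1 (-1.88), CCNB2 (-2.23) and KIF23 (-2.84), yet had 2.10 for BIRC5 and 1.48 for AURKB. AD dog 14 showed the same contrast, with -1.24 for TOP2A and -2.64 for CDC20 but 1.73 for BIRC5. CDC20 was well above background in 18 of 20 AD dogs and KIF23 in 19. AD dogs 6 and 14 had 30 and 27 of 32 genes well above background. Whether the lowest values lie at background was not tested. Healthy dog 1 was the highest healthy dog for BIRC5 (1.42), AURKB (1.31), PLK1 (1.09) and AURKA (0.67), and healthy dog 3 for TOP2A (1.1) and CDK1 (0.73).

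**Figure D3:**
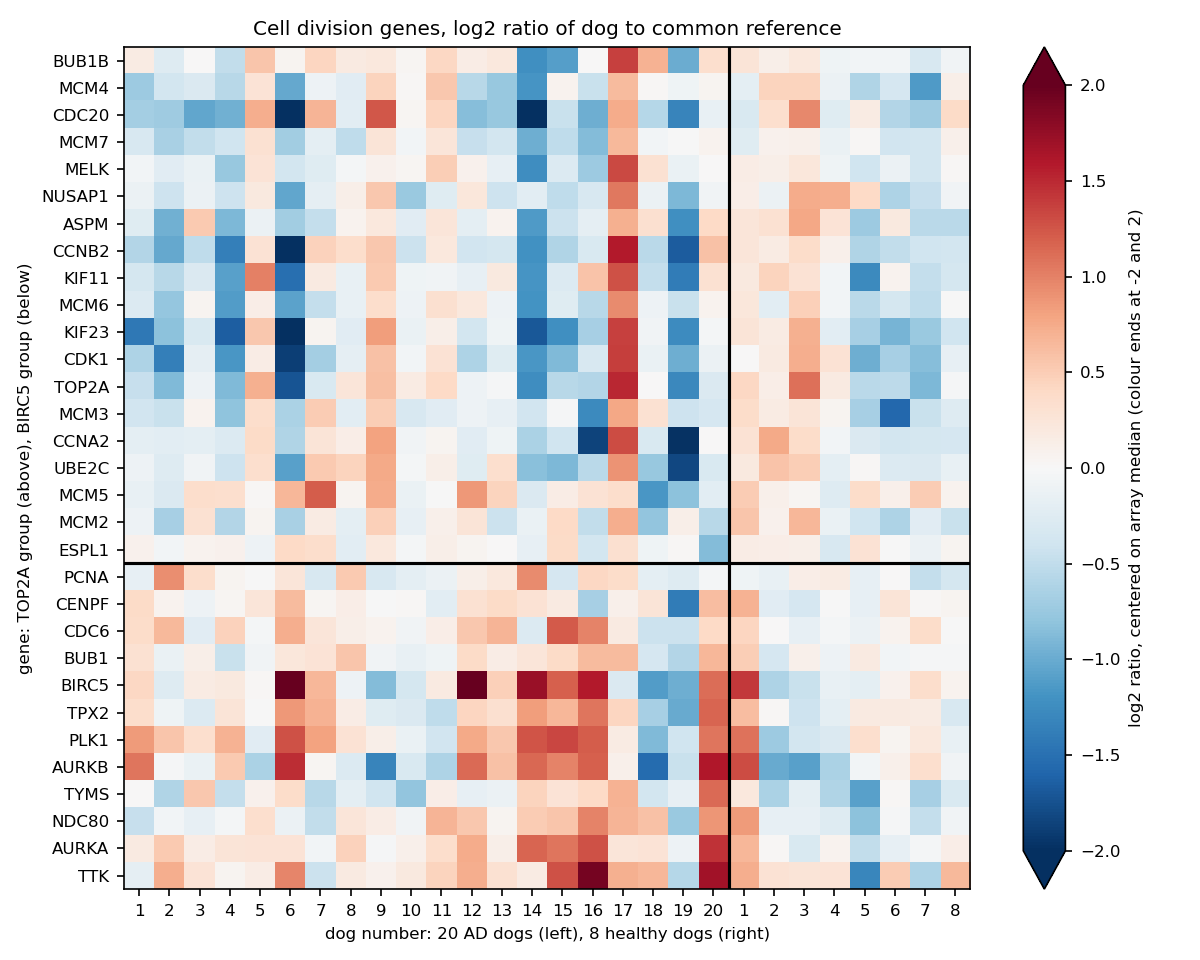
Log2 ratio of dog to common reference (color, from -2 to 2) of 31 cell division genes (rows) in 20 AD dogs and 8 healthy dogs (columns), with the TOP2A group above and the BIRC5 group below the line. AD dog 17 was high through most of the upper block, while AD dogs 6 and 14 were low there and high for BIRC5, PLK1 and AURKB.

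Many cell division genes varied together from dog to dog. Over the 465 pairs of the 31 genes, the median Pearson r was 0.22 for AD and 0.37 for healthy dogs, against -0.0066 and -0.0045 over all pairs of genes tested. Genes of a pair share the arrays, so no p is given. Pairs above 0.7 made up 16.1% and 21.5% of those pairs, against 3.14% and 7.54% of all pairs. The value in healthy dogs was 0.18 with slide means removed and 0.18 without healthy dog 1, and that in AD dogs was 0.21 with slide means removed and 0.13 without the last scan day. In the common reference channel alone the same pairs had a median r of 0.03 over AD arrays and 0.09 over healthy arrays.

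The list did not move as a single block. Average linkage on 1 - r over AD dogs, split in 2, gave a group of 19 genes around TOP2A and a group of 12 around BIRC5. The TOP2A group held MCM2 to MCM7, CCNA2, CCNB2, CDK1, MELK, BUB1B, CDC20, UBE2C, ESPL1, KIF11, KIF23, NUSAP1, ASPM and TOP2A. The BIRC5 group held CDC6, PCNA, TYMS, PLK1, AURKA, AURKB, BUB1, TTK, NDC80, CENPF, TPX2 and BIRC5. Each of the 5 roles above was split between both groups. The split was made on these values, so its r in AD dogs is a description only, and healthy dogs were not used to make it.

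In AD dogs the median r was 0.63 within the TOP2A group, 0.49 within the BIRC5 group and -0.12 between them. In healthy dogs it was 0.62, 0.55 and 0.02, but without healthy dog 1 it was 0.66, 0.15 and -0.31, so the value within the BIRC5 group rested on that dog. Without the last scan day the values in AD dogs were 0.67, 0.34 and -0.38. With slide means removed, these values were 0.69, 0.51 and -0.20 in AD dogs and 0.33, 0.59 and -0.06 in healthy dogs. The common reference channel alone gave 0.16, 0.00 and -0.01 over AD arrays. TOP2A itself had the highest median r to the others of its group in AD dogs (0.80), ahead of CDK1 (0.76) and MCM6 (0.75). MCM5 and ESPL1 were loosely tied to that group, with a median r of 0.19 and 0.05. MCM5 was nearer to the BIRC5 group, with 0.26 in AD dogs and 0.50 in healthy dogs, against -0.31 to the TOP2A group in healthy dogs. In the BIRC5 group TPX2 (0.64), AURKB (0.59), AURKA (0.59), PLK1 (0.59) and BIRC5 (0.58) were the most alike. PCNA and CENPF were the least, at 0.28 and 0.26. In healthy dogs PCNA and TTK were nearer to the TOP2A group (0.45 and 0.41) than to their own (-0.10 and 0.25). The means of both groups had an r of -0.21 (rho -0.30) over AD dogs and 0.05 (rho -0.24) over healthy dogs.

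**Figure D4:**
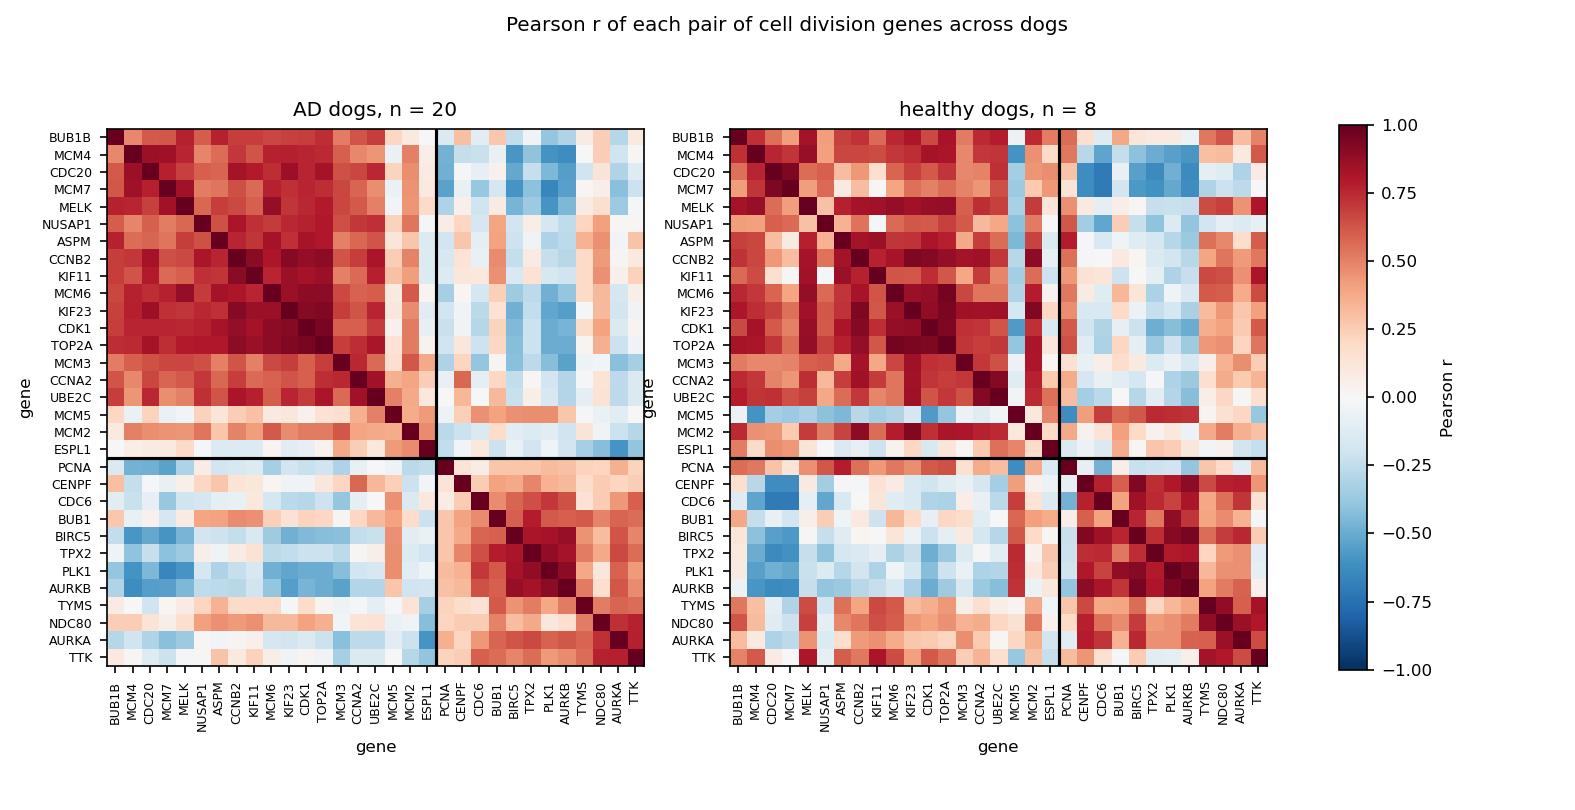
Pearson r of each pair of 31 cell division genes over 20 AD dogs (left) and 8 healthy dogs (right), with the TOP2A group first and the BIRC5 group after the black line. Both panels show red blocks within the groups, with a median r of 0.63 and 0.49 in AD and 0.62 and 0.55 in healthy dogs, and pale or blue blocks between them (-0.12 and 0.02). The BIRC5 block was weaker without healthy dog 1 (0.15) and without the last scan day of AD dogs (0.34).

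Probes of 1 gene did not always fall in the same group. Of 7 further probes for genes of the TOP2A group, 5 had a higher r over AD dogs with the mean of that group than with the BIRC5 group, and so did 4 over healthy dogs. Among these 7, the probe of MCM7 overlaps the first probe of that gene and is not independent of it. For 7 further probes of the BIRC5 group, 5 were nearer to their own group over AD dogs and 3 over healthy dogs. The AURKA probe in the BIRC5 group had an r of 0.78 with the mean of the other genes there and -0.24 with that of the TOP2A group over AD dogs. The second AURKA probe and the one tied by accession had the reverse, with 0.77 and 0.94 to the TOP2A group and -0.12 and -0.25 to the BIRC5 group. The 2 probes of TYMS had 0.58 and 0.65 to the BIRC5 group over AD dogs and 0.71 and 0.61 over healthy dogs. Those of AURKB had 0.83 and 0.53 over AD dogs, but 0.78 and 0.21 over healthy dogs, where the second had 0.27 to the TOP2A group. The second probe of PCNA had -0.02 to its own BIRC5 group over AD dogs and -0.76 over healthy dogs. That of CDK1, matched by accession, had -0.26 to the TOP2A group over AD dogs and 0.05 over healthy dogs. The dimmest probe of CCNB2, well above background in 14 of 20 AD dogs, had 0.40 to its own TOP2A group over AD dogs. Over healthy dogs it had -0.82, and -0.66 with the brightest probe of CCNB2. The remaining probe of CCNB2 had 0.78 to the TOP2A group over AD dogs and 0.71 over healthy dogs. Of the genes matched by description, PRC1 followed the TOP2A group (r of 0.91 in AD and 0.89 in healthy dogs) and MKI67 the BIRC5 group (0.81 and 0.69). A second probe of MKI67 had 0.61 and 0.14 with the BIRC5 group and 0.20 and 0.25 with the TOP2A group.

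Pairs of proteins that work together were tested as named pairs, of which AURKB with BIRC5 and BUB1 with BUB1B could be measured by name. AURKB and BIRC5 varied together, with r of 0.87 over AD dogs (permutation p = 1e-05, the smallest that 100000 permutations can give, adjusted over the 4 tests to 4e-05; rho 0.85, permutation p = 1e-05, adjusted p = 4e-05). For healthy dogs it was 0.95 (exact permutation p = 0.000397, adjusted p = 0.000794; rho 0.90, exact p = 0.00456, adjusted p = 0.00913). Leaving out the 2 dogs farthest from the median of AURKB, r was 0.86 and 0.91, and with slide means removed 0.91 and 0.99. A second probe of AURKB had r of 0.66 with the first over AD dogs and 0.30 over healthy dogs. Of other genes, 11.5% in AD dogs and 12.6% in healthy dogs had r above 0.7 with the mean of the BIRC5 group. BUB1 and BUB1B were not shown to be related, with r of 0.27 in AD dogs (permutation p = 0.252, adjusted p = 0.336; rho 0.19, permutation p = 0.416, adjusted p = 0.428) and 0.39 in healthy dogs (exact permutation p = 0.337, adjusted p = 0.337; rho 0.33, exact p = 0.428, adjusted p = 0.428). Leaving out the 2 dogs farthest from the median of BUB1, r was -0.00010 and 0.42. MKI67 and TOP2A, both common markers of dividing cells, were tested once MKI67 was added by its description. By the brightest MKI67 probe they ran in opposite directions over AD dogs, with r of -0.65 (permutation p = 0.00187, adjusted over 6 tests to 0.00374). Over healthy dogs r was -0.37 (exact permutation p = 0.363), and no relation was shown. Spearman's rank correlation was -0.65 over AD dogs (permutation p = 0.00278, adjusted p = 0.00834) and -0.36 over healthy dogs (exact p = 0.389, adjusted p = 0.428). A second probe of MKI67 was not tested against TOP2A and had an r of 0.55 with the first over AD dogs and -0.18 over healthy dogs. With the mean of the TOP2A group the second probe had r of 0.20 over AD dogs and 0.25 over healthy dogs. The first probe had -0.59 and -0.41, so the opposite direction rested on the probe used.

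Marker genes of blood cells moved with both groups, and their part in the co-variation was not tested. The plasma cell list held 7 genes, of which IGJ, XBP1, PRDM1 and IRF4 were kept, and the mean of these 4 ran from -1.07 to 0.73 in AD dogs and from -0.21 to 0.85 in healthy dogs. The mean of the TOP2A group followed it, with r of 0.92 (rho 0.91) over AD dogs and 0.89 (rho 0.83) over healthy dogs. Leaving out the 2 dogs with the most extreme marker means, r was 0.89 and 0.80, and with slide means removed 0.95 and 0.71. IGJ, the J chain of secreted antibodies, had r of 0.89 and 0.80, XBP1, the factor of the secretory program, 0.80 and 0.82, and IRF4 0.79 and 0.82. PRDM1, a factor that fixes plasma cell fate, had only 0.21 and 0.32. All 4 were detected on every array. XBP1, PRDM1 and IRF4 are also used by other leukocytes. With the B cell list the TOP2A group had r of 0.20 and 0.12.

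The BIRC5 group followed the erythroid list instead, with r of 0.85 (rho 0.89) over AD dogs and 0.88 (rho 0.86) over healthy dogs, and of 0.84 and 0.91 without the 2 dogs of most extreme marker means. With slide means removed these values were 0.84 and 0.98. A high r with this group was common on the arrays: 11.5% of 23343 other genes in AD dogs and 12.6% in healthy dogs had r above 0.7 with its mean, against 2.63% and 5.34% for the TOP2A group. Of 12 erythroid genes 9 were kept, all detected on every array, with a mean of -1.59 to 1.34 in AD dogs and -1.24 to 1.14 in healthy dogs. HEMGN, a nuclear protein of red cell precursors, had r of 0.84 and 0.91 with the group, and KLF1, the erythroid transcription factor, 0.79 and 0.86. The lowest was TFRC, the transferrin receptor that dividing cells also use, with 0.64 and 0.06. With the plasma cell list the BIRC5 group had r of -0.36 and -0.08, and the TOP2A group had -0.41 and -0.34 with the erythroid list. Without the last scan day the values in AD dogs were -0.70 and -0.69. Monocyte markers ran against the BIRC5 group (r of -0.64 and -0.73). Platelet markers had r of -0.86 with that group in healthy dogs but 0.15 in AD dogs, and neutrophil markers had -0.62 with the TOP2A group in AD dogs but -0.09 in healthy dogs.

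**Figure D5:**
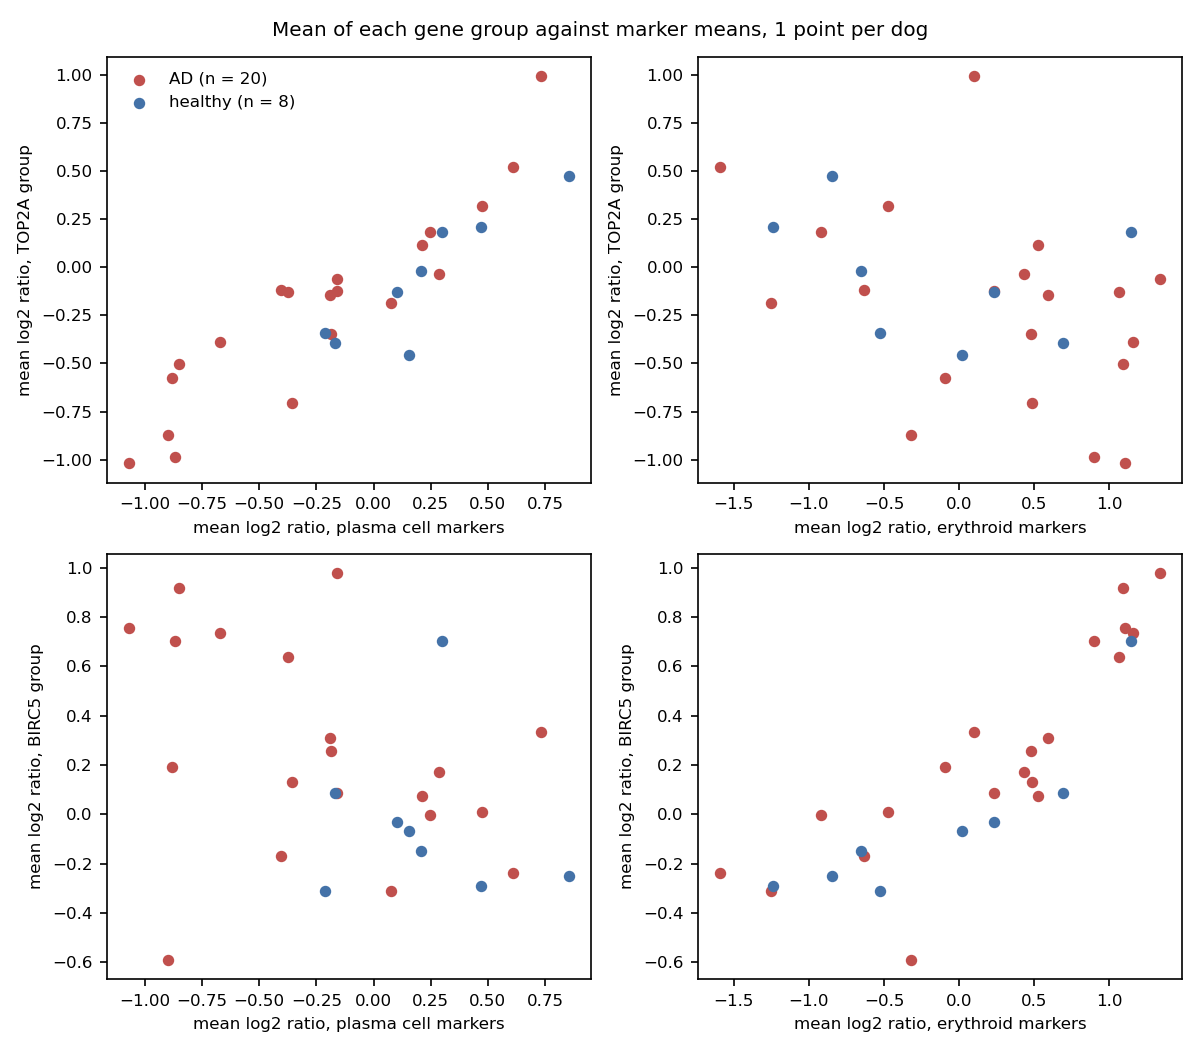
Mean log2 ratio of the TOP2A group (upper row) and the BIRC5 group (lower row) against the mean log2 ratio of 4 plasma cell markers (left column) and 9 erythroid markers (right column), 1 point for each AD dog (red) or healthy dog (blue). The TOP2A group rose with the plasma cell markers (r of 0.92 and 0.89) and the BIRC5 group with the erythroid markers (0.85 and 0.88), and the other panels show r of -0.41 to -0.08.

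Between AD and healthy dogs no gene of the 9 marker lists passed adjustment. The median difference was -0.23 over 4 plasma cell genes, with 0 of 4 positive, and 0.31 over 9 erythroid genes, with 9 of 9 positive. It was -0.06 for 8 T cell genes, -0.16 for 8 B cell genes, -0.24 for 7 cytotoxic genes and 0.02 for 7 monocyte genes. For 9 neutrophil genes it was 0.18, for 5 neutrophil precursor genes 0.35 and for 5 platelet genes -0.22. The TOP2A group averaged -0.20 ± 0.50 (SD, n = 20) over AD and -0.06 ± 0.33 (SD, n = 8) over healthy dogs. For the BIRC5 group these values were 0.25 ± 0.43 (SD, n = 20) and -0.04 ± 0.33 (SD, n = 8), and both differences were smaller than the spread between dogs.

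Among healthy dogs the TOP2A group also moved with the slide. Its mean was 0.18, 0.21, 0.48 and -0.02 in healthy dogs 1 to 4, on slide 2, and -0.34, -0.40, -0.46 and -0.13 in healthy dogs 5 to 8, on slide 3, with no overlap. Without overlap, MCM2, MCM3, CCNA2, CCNB2, CDK1, KIF23, ASPM and TOP2A were each higher on slide 2, which is 8 of 31 genes against 1.68% of all genes. The reverse held for 0 of 31 against 0.954%. No gene of the BIRC5 group was among the 8. The plasma cell markers were 0.30, 0.47, 0.85 and 0.21 on slide 2 and -0.21, -0.17, 0.15 and 0.10 on slide 3, also with no overlap. The mean of the TOP2A group had an r of 0.78 with the share of probes detected over the 8 healthy arrays and 0.13 over AD arrays, and the part of detection was not tested. Dog and slide cannot be told apart here. Without slide 2 the median difference of AD minus healthy over the 31 genes was 0.19, and without slide 3 it was -0.19.

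Genes of the cell cycle were common among those most like the mean of the 31. Of 23343 other genes, the 10 with the highest r over the 20 AD dogs were PTTG1 (0.89), SPAG5 (0.86), TK1 (0.85), a transcript known only as an expressed sequence tag (0.85), CDCA8 (0.84), DPEP1 (0.83), SPC24 (0.83), ORC1 (0.83), NCAPG (0.83) and CDKN3 (0.82). PTTG1 is securin, the inhibitor of separase, and had r of 0.95 over the 8 healthy dogs. TK1, the thymidine kinase of S phase, had 0.88, and SPAG5, a spindle protein, 0.82. Least alike in healthy dogs were CDKN3, a phosphatase that acts on cyclin-dependent kinases, with 0.50, and DPEP1, a dipeptidase, with 0.52. For the BIRC5 group alone the named genes most like the mean over AD dogs were DCK (0.96), a kinase that salvages deoxycytidine, TRIM38 (0.95), GPRIN2 (0.94) and SVEP1 (0.94), with r of 0.84, 0.78, 0.65 and -0.08 over healthy dogs.

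The other genes of the cell cycle gave the same answer between the groups. Of 79 genes on a wider list of cyclins, inhibitors, licensing and checkpoint genes, 72 had a probe of that name and 69 were kept, and 0 of 69 passed adjustment. At an unadjusted p under 0.05 there were 3 of 69, or 4.35%, against 6.12% of all probes, and the median difference was 0.00. CDT1 and ANAPC5 were on the study's own list, chosen on these samples, so their values are not independent evidence. CDT1, which loads the MCM ring with CDC6, averaged -0.14 ± 0.18 (SD, n = 20) over AD and 0.16 ± 0.16 (SD, n = 8) over healthy dogs, and 0 of 20 AD dogs lay above the healthy mean. Its difference was -0.30 (SE 0.09), with an adjusted p of 0.490 that ran from 0.0556 to 0.996 over the settings tried. ANAPC5, a subunit of the anaphase-promoting complex, had a difference of -0.43 (SE 0.13, adjusted p = 0.490, range 0.00438 to 0.996). CDK6, a kinase of G1, had 0.62 (SE 0.27), SKP2, which marks cyclin inhibitors for destruction, -0.37 (SE 0.20), and CDC7, the kinase that fires origins, -0.32 (SE 0.18).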

How the data were processed

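The authors scanned 28 arrays, 1 for each dog, and extracted spot intensities with Agilent Feature Extraction (version 10.7.3.1 in the submitters' processing notes, 10.10.1.1 per the file headers), which subtracted background and applied Lowess dye normalization. The deposited files hold the processed intensity of both channels on a linear scale, flags that mark outlier spots or a signal clear of background, and a log10 ratio that the authors' table repeats.

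Fits were run with limma 3.58.1 in R 4.3.3, where files were read through the data.table package, version 1.17.8. Python 3.11.15 with scipy 1.17.1, numpy 2.4.6, pandas 2.3.3 and matplotlib 3.10.9 served for the rest. Control spots were left out, spots with outlier marks were set to missing and spots of 1 probe were averaged. The study filtered on a median signal of 100 in the red and green channels and on expression, in a form not fully stated, and kept fewer transcripts than were kept here. Here probes were kept where the median signal exceeded 100 in either channel of either group (30202 of 43603), with detection on at least 1 array and values on 50% of the arrays of each group. Log2 ratios were centered on the array median. AD dogs were compared with healthy dogs by lmFit and eBayes with Benjamini-Hochberg adjustment over all probes kept, at the study's threshold of 0.085 and at 0.05. The number of arrays limits the precision. The p-values rest on the spread between arrays, 1 for each dog, and do not separate dog, array, slide and scan day.

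The brightest probe was that with the highest mean processed signal over both channels. Named pairs were tested with 100000 permutations in AD dogs and all permutations in healthy dogs, two-sided. Genes with values over dogs were chosen by a rule. It took well-known members, the 5 members of smallest unadjusted p and, among those matched by name, the 3 with the largest difference in detection. It also took 5 of the wider cell cycle list and the 10 most alike genes. The split in 2 groups, the comparison of probes of 1 gene and the comparison of healthy slides were chosen after seeing the values. The members and lists were chosen with earlier results of these data known. The fits were tested on simulated data. Alternatives varied the filter, outlier marks, background correction, centering, channel, source of values, probe, slide, scan day, dog number, array weights and arrays left out.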

Additional observations from a re-analysis of the deposited data

Results flagged for a closer look

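In the healthy dogs, 27 sets of values were searched for a dog far from the others, which chance finds in about 1 in 20, and 2 were found. The mean of the BIRC5 group was 0.70 in healthy dog 1 and at most 0.09 in the other healthy dogs, a gap of 0.61 of the whole range. This dog also had the highest erythroid marker mean of the healthy dogs, at 1.14. Without it, the median r over all pairs of cell division genes in healthy dogs was 0.18 instead of 0.37, and that within the BIRC5 group was 0.15 instead of 0.55. ANAPC5 was 0.89 in healthy dog 5 and at most 0.16 in the other healthy dogs, a gap of 0.56 of the range.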

How the results depend on the processing

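The count of cell division genes called stayed at 0 under every alternative but array weights, with 1 (PLK1), and the median difference stayed between -0.19 and 0.19. At an unadjusted p under 0.05 there were 2 genes, and 3 of the wider cell cycle list. That list had 3 calls in the dog channel alone, 3 with array weights and otherwise 0. The median r in healthy dogs was 0.177 with slide means removed and 0.180 without healthy dog 1. The median number of genes detected was 37 in both groups once the 5 genes matched by description were added, and 31 in healthy dogs over the genes kept by the filter. The dog channel alone turned the sign of CDK1 (0.22), TOP2A (0.0096), BUB1 (-0.014), BUB1B (-0.16), MCM2 (0.49), MCM4 (0.31) and MCM5 (0.080). Without slide 2 the sign turned for CDK1 (0.26), TOP2A (0.25), MCM2 (0.32), MCM4 (0.28) and MCM6 (0.12), and without slide 3 for BUB1B (-0.088), MCM3 (-0.37) and MCM5 (0.026). BUB1B was -0.031 without slide 4 and -0.0053 without slide 5, MCM2 was 0.012 without slide 8 and 0.047 without healthy dog 1, and MCM5 was 0.096 without slide 8, 0.098 without the last scan day and 0.13 with array weights. MCM4 was 0.027 without slide 1, 0.042 without slide 6, 0.042 as the mean of its probes and 0.0052 with normexp and loess. AURKA was -0.17 by its brighter probe tied by accession, and BUB1 with BUB1B had r of -0.082 in healthy dogs without healthy dog 1. Within the BIRC5 group, the median r in AD dogs was 0.30 in the dog channel alone and 0.34 without the last scan day, which also moved the r between the groups to -0.38. Within the TOP2A group it was 0.33 in healthy dogs with slide means removed. The causes were not tested. Without slide 2 or 3 the healthy dogs number 4, so their correlations were not run.

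Dog numbers are shared by both groups but mark different animals, so the numbers give no pairing. Deviations of the 8 same-numbered pairs had r of -0.36 to 0.42, and 1 of 8 healthy dogs matched its own number best. With the number as a replicate block, 0 genes were called, the median difference was -0.03, and probes at an unadjusted p under 0.05 numbered 2157 against 1847 without it. Depth here is signal over background. RRM2, CENPF and MCM3 were detected in 13, 16 and 17 of 20 AD dogs, and in 12, 14 and 13 of the 14 outside the last scan day. AD dog 14, of scan day 4, had 60.2% of probes and 27 of 32 genes detected. Why detection was low was not tested. Alternatives on probes matched by description or accession and without healthy dog 1 were chosen after seeing the data.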
